A study of Mus musculus with 16 samples.

Results

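The 10 genes described here encode antimicrobial peptides and proteins of mouse skin: the beta-defensins *Defb1*, *Defb3*, *Defb4*, *Defb6* and *Defb14*, the cathelicidin *Camp*, the iron-sequestering lipocalin *Lcn2*, the antiproteases *Slpi* and *Wfdc12*, and the peptidoglycan receptor *Pglyrp1*. They were taken by name from the 55359 genes of the count tables, and each was found. RNA had been sequenced from whole dorsal skin of 16 C57Bl/6N wild-type mice, labelled as 8 weeks old and in telogen, when hair follicles rest. Each sex had 4 UVB-irradiated and 4 no-UVB mice. The irradiated mice had been exposed to UVB 3 times, and their skin was collected 6 h after the last exposure, on day 5. They had been shaved and were anesthetized for the irradiation, and the sources used here do not say whether the controls were handled in the same way.

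Antimicrobial peptides are the chemical barrier of the epidermis. Keratinocytes make beta-defensins, some of them constitutively, and they make more of the inducible ones and of *Slpi* and *Lcn2* in wounded or inflamed skin, where cytokines such as IL-17, IL-22, IL-1 and IL-36 are known inducers. Beta-defensins are small cationic peptides that damage microbial membranes and attract immune cells, and the WAP proteins *Slpi* and *Wfdc12* inhibit proteases. Cathelicidin and *Pglyrp1* are stored in neutrophil granules, and *Lcn2* and *Slpi* are made by neutrophils as well as by epithelium.

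In males *Defb1*, *Lcn2*, *Slpi* and *Wfdc12* were upregulated, and *Defb3*, *Defb4* and *Defb14*, low in the controls, were higher in every irradiated male than in any control male. In females *Defb14*, *Lcn2* and *Slpi* were upregulated, and *Wfdc12*, low in the controls, was higher in every irradiated female. The rise of *Slpi* was larger in males, by 2.15 on the log2 scale, and so was that of *Defb14* (2.16), whose call was lost in 7 of 16 fits that left out 1 mouse. *Wfdc12* was higher in males with and without UVB, with log2 fold changes after UVB of 2.39 in males and 2.27 in females. *Pglyrp1* did not pass the test in either sex, and *Camp* did not pass in males and had too few reads in females.

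Depth overlapped between the groups, with 16495776 to 33404831 reads on genes per mouse. Levels are given as CPM, counts scaled to 1e6 reads on genes after TMM scaling between libraries, and n = 4 mice in every group. A gene was called upregulated at a Benjamini-Hochberg adjusted *p* under 0.1 over all genes tested and a log2 fold change past 1, in edgeR's quasi-likelihood test within a sex. By this rule 7.39% of 16535 genes were called in males (4.08% upregulated and 3.31% downregulated) and 2.71% of 16883 in females (1.63% and 1.08%). Of the antimicrobial genes, 9 had enough counts to be tested in males, of which 6 were upregulated and 0 downregulated, and 7 could be tested in females, of which 4 were upregulated and 0 downregulated. *Defb3* and *Defb14* in males and *Wfdc12* in females reached the filter on low counts only with the irradiated mice, and such a gene could enter the test only by being high there, so no *p* is given for these 3 responses. Among the genes that reached it in the control mice alone, 4 of 6 were upregulated in males and 3 of 6 in females. *Camp* is not among these 6 in males, as it did not reach the filter in the control males alone. In 8 of 10 genes all irradiated males lay above all control males, as in 22.9% of all genes tested, and in 6 of 10 the irradiated females lay above the control females, as in 11.1%. The *p*-values measure the spread between these mice. As the RNA came from whole skin, a change in the number of cells that make a transcript and a change in the RNA per cell cannot be told apart.

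No-UVB male replicates 3 and 4 stood apart, against the label of telogen. The summed level of 8 anagen hair shaft markers was 95.1 and 145 CPM in them and 11.1 to 30.0 CPM in the other 14 mice, and *Krt71*, a hair follicle keratin, was at 21.1 and 39.9 CPM in them and at most 1.75 CPM elsewhere. The same mice had the most *Camp*, *Defb14*, *Slpi* and *Defb6* of the control males, and the part of the hair cycle in the results was not tested. Without both, which leaves 2 control males (a fit chosen after seeing the data), *Defb1*, *Lcn2*, *Slpi* and *Wfdc12* were still called in males, and *Defb6* was called as well, with a log2 fold change of 1.02 (edgeR adjusted *p* = 9.11e-06). *Camp* then had a log2 fold change of 1.15, with 11 and 4 reads in the remaining controls, and reached the low-count filter only with the irradiated males. The male log2 fold change of *Slpi* was then 4.35 and that of *Defb14* 5.22, and the differences between the sexes were 2.71 (edgeR adjusted *p* = 0.0209) and 3.21 (0.0212).

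*Defb6* (ENSMUSG00000050756.4) and *Defb3* (ENSMUSG00000039775.8), paralogous beta-defensin genes on the forward strand of chromosome 8 of GRCm39, differed widely in level in no-UVB skin, where *Defb6* was the most abundant of the 5 defensins and *Defb3* had at most 2 reads per mouse. *Defb6* spans 19275494 to 19278225 and *Defb3* spans 19343376 to 19345350, 65.15 kb further on. Of the promoters of 7 antimicrobial genes that were at hand, those of these 2 genes were the most alike in sequence. Their 250 bases upstream of the start site are shown for this reason, with capitals at every base that is not identical in the alignment of the pair. The sequences are from RefSeq (GRCm38.p6 table), and an exact match placed them at chr8:19343127-19343376 and chr8:19275244-19275493 of GRCm39, forward strand.
Defb3: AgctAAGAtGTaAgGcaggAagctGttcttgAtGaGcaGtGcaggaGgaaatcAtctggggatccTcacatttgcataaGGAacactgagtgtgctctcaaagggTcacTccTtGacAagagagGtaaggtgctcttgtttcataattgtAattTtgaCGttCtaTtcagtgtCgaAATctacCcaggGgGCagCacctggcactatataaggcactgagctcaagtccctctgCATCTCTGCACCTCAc
Defb6: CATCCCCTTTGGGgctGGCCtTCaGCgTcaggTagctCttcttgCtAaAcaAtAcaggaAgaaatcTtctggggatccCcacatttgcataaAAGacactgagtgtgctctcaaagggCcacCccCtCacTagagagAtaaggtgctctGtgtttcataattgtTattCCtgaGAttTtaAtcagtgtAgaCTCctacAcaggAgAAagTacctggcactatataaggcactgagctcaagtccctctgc
The pair was identical at 192 of 265 aligned positions (72.5%), against 42.5 to 48.9% for the other pairs of these promoters. Near the start site both windows share an identical stretch of 40 bases, of which 39 sit side by side in the alignment. Both windows hold the letters ttgcataa, which match the C/EBP motif TTGCNNAA, at -179 in *Defb3* and at -166 in *Defb6*.

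*Defb6* was the most abundant of the antimicrobial genes per length of transcript in all 4 groups. Its level was 118, 113, 149 and 161 CPM in the 4 no-UVB males and 243, 234, 213 and 219 CPM in the 4 UVB-irradiated males. In females *Defb6* was at 225, 169, 133 and 125 CPM without UVB and at 252, 234, 237 and 230.4 CPM after it. Every irradiated mouse was above every control of its sex, although the highest female control lay just below the lowest irradiated female. The male log2 fold change of *Defb6* was 0.77 (standard error, SE, 0.108, edgeR adjusted *p* = 0.000186) and the female value 0.56 (0.162, 0.0453). *Defb6* thus changed by less than the fold required for a call. At the adjusted *p* alone, 29% of all genes rose in males and 12.8% in females.

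*Defb3* was close to absent from unirradiated skin. The no-UVB males had 1, 1, 0 and 2 reads of *Defb3*, and the UVB-irradiated males had 55, 54, 18 and 18. In females there were 0 reads in each of the 4 controls, and 0, 8, 8 and 1 after UVB. The irradiated males were all above their controls, while 1 irradiated female had no read, as the female controls did. The ratio of summed reads in males, scaled for library size, was 35.3, with a 95% interval of 13.5 to 131.4 from counting error alone. As *Defb3* passed the filter on low counts through the irradiated males only, no *p* is given for its male response. In females it had too few reads for that test. The mean of the irradiated females was 1.36 times a floor of 3 reads per library set in place of the controls. This ratio has no interval, and an exact permutation test of the female groups gave *p* = 0.143 (two-sided, chosen after seeing the counts).

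*Defb1* (ENSMUSG00000044748.9, chromosome 8 from 22266584 to 22285201), the constitutive beta-defensin of many epithelia, lies about 2921 kb from *Defb3*, the nearest of the other 4 defensin genes described here. It was at 31.3, 26.1, 22.8 and 27.5 CPM in no-UVB males and at 78.3, 92.8, 71.4 and 71.1 CPM in UVB-irradiated males. In females *Defb1* was at 38.8, 27.6, 25.5 and 21.7 CPM without UVB and at 59.5, 61.0, 54.1 and 47.0 CPM after it. The groups did not overlap in either sex. *Defb1* rose by 1.56 on the log2 scale in males (SE 0.110, edgeR adjusted *p* = 2.34e-06). Its female log2 fold change was 0.97 (SE 0.163, edgeR adjusted *p* = 0.00448), just short of the fold required. Without UVB female replicate 4 or no-UVB female replicate 1 it was 1.05 and 1.16, and *Defb1* would count as upregulated.

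*Defb14* (ENSMUSG00000046354.4, 19244373 to 19245228 on chromosome 8) is the mouse counterpart of the inducible human beta-defensin 3. Its level was 0.373, 0.414, 0.953 and 1.66 CPM in no-UVB males and 15.6, 19.3, 11.6 and 11.5 CPM in UVB-irradiated males. In females *Defb14* was at 0.563, 0.991, 0.851 and 0.808 CPM without UVB and at 2.06, 5.62, 3.13 and 1.63 CPM after it. The control females lay within the range of the control males, every irradiated female was above her own controls, and the irradiated males were above every female. The log2 fold change was 4.15 in males (SE 0.360) and 1.97 in females (SE 0.394, edgeR adjusted *p* = 0.00933). Irradiated female replicate 2 was the highest of its group, and *Defb14* was still called in females in each fit that left out 1 mouse, with edgeR's adjusted *p* of at most 0.0270.

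*Defb4* (ENSMUSG00000059230.3, 19248722 to 19251561) starts 3.493 kb after the end of *Defb14*, with no annotated protein-coding gene between them, and is counted among the inducible beta-defensins. The no-UVB males had 0, 0, 1 and 1 reads and the UVB-irradiated males 22, 21, 6 and 10. Female controls had 0, 0, 2 and 1 reads of *Defb4* and irradiated females 1, 2, 2 and 2. The irradiated males were above all other mice, and the female groups overlapped. *Defb4* had too few reads for the test across genes. The ratio of summed reads in males was 28.7 (95% interval from counting error 7.61 to 243), and an exact permutation test gave its smallest possible *p* of 0.0286, or 0.0857 when adjusted over 6 such tests. Both female groups were at or under 3 reads in every mouse, and no fold is given.

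The transcripts of the defensins differ enough for most reads to be told apart. *Defb3* and *Defb4* shared the longest identical run, 33 bases, followed by *Defb4* and *Defb6* with 26 bases, and no other pair of the 10 genes shared more than 12. Over the whole transcript, *Defb3* was 66.0% identical to *Defb6* and 54.4% to *Defb4*. Of 43 annotated genes named *Defb*, 21 had no read in any mouse and 6 reached 10 reads in some mouse, the 5 described here and *Defb8*, which had a mean of 1.03 CPM in no-UVB males and was near 0 in the other groups. None of the 28 annotated alpha-defensin genes (*Defa*) had a read.

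*Slpi* (ENSMUSG00000017002.15, reverse strand of chromosome 2 from 164195990 to 164231015) encodes secretory leukocyte protease inhibitor, which protects tissue from neutrophil elastase and is itself antimicrobial. It was at 0.699, 0.691, 1.52 and 1.20 CPM in no-UVB males and at 14.2, 22.2, 8.66 and 10.7 CPM in UVB-irradiated males. In females *Slpi* was at 1.91, 1.74, 1.28 and 0.859 CPM without UVB and at 3.14, 3.75, 5.10 and 5.67 CPM after it. The lowest irradiated male was above the highest irradiated female, and the controls of the sexes overlapped. *Slpi* rose by 3.77 on the log2 scale in males (SE 0.373, edgeR adjusted *p* = 4.76e-05) and by 1.61 in females (0.264, 0.00340). The annotated gene overlaps *Matn4* on the same strand through a long isoform, and reads on both genes are not counted for either.

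The 250 bases upstream of the RefSeq start site of *Slpi* are shown because its response differed most stably between the sexes. They lie at chr2:164198428-164198677 of GRCm39, reverse strand, overlap no annotated exon, and are credited to the same RefSeq table. Capitals mark the only match to the motifs searched.
Slpi: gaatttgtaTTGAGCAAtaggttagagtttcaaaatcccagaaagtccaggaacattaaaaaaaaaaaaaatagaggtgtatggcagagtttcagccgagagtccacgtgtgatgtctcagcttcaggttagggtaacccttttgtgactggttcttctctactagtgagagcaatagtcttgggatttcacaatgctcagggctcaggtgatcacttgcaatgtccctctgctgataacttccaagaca
The motifs were TGANTCA (AP-1), the NF-kB motif, TTGCNNAA (C/EBP) and TTCNNNGAA (STAT), searched on both strands of the 300 bases around each start site. Of the 7 promoters, 5 held the C/EBP motif (*Lcn2*, *Wfdc12*, *Slpi*, *Defb6* and *Defb3*), which 10.8% of all 32851 promoters in the table hold. *Defb6* and *Defb3*, alike in sequence, share a match, so the 5 are not independent. The upstream windows overlap annotated exons by 197 of 250 bases in *Lcn2*, 161 in *Camp*, 83 in *Pglyrp1* and 60 in *Wfdc12*. The start site used lies 513 bases from the annotated gene start in *Lcn2*, 13359 in *Pglyrp1* and 32588 in *Slpi*. The NF-kB motif was found in that of *Pglyrp1* alone (1.20% of all promoters), and the AP-1 and STAT motifs in 0 of 7 (7.81% and 8.30% of all). In *Slpi* the match begins at -241 and in *Lcn2* at -216, and no matches overlapped. These are matches of letters and were not tested for binding.

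*Wfdc12* (ENSMUSG00000042845.8, reverse strand of chromosome 2 from 164031151 to 164032538) encodes a small WAP protein of the same gene cluster, 163.451 kb from *Slpi* with 8 protein-coding genes between. Its level was 2.70, 2.44, 1.60 and 2.81 CPM in no-UVB males and 12.6, 13.9, 10.4 and 12.2 CPM in UVB-irradiated males. In females *Wfdc12* was at 0.520, 0.674, 0.360 and 0.253 CPM without UVB and at 2.68, 2.99, 1.76 and 1.35 CPM after it. Every irradiated mouse was above the controls of its sex, and the irradiated females overlapped the male controls. *Wfdc12* rose by 2.39 on the log2 scale in males (SE 0.164, edgeR adjusted *p* = 1.57e-06), and its female log2 fold change was 2.27 (SE 0.345). Of 7 genes of the *Wfdc* family with at least 10 reads in some mouse, 2 were upregulated in males, *Wfdc12* and *Wfdc5*, and 1 was downregulated. In females *Wfdc21* was upregulated beside *Wfdc12*, and *Wfdc21* (named after its values were seen) had a log2 fold change of 1.09 in females and 0.22 in males, with a male minus female difference of -0.89 (edgeR adjusted *p* = 0.0890). The count of *Wfdc12* takes the strand into account, since a non-coding gene on the opposite strand overlaps it.

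*Lcn2* (ENSMUSG00000026822.15, reverse strand of chromosome 2 from 32274645 to 32278264) encodes lipocalin 2, which withholds iron from bacteria by binding their siderophores. It was at 5.55, 6.95, 4.77 and 3.96 CPM in no-UVB males and at 17.8, 24.6, 14.1 and 16.1 CPM in UVB-irradiated males. In females *Lcn2* was at 3.25, 2.85, 4.16 and 4.29 CPM without UVB and at 8.34, 8.11, 10.3 and 13.0 CPM after it. Irradiated and control mice did not overlap in either sex. Its log2 fold change was 1.78 in males (SE 0.202, edgeR adjusted *p* = 5.95e-05) and 1.46 in females (0.189, 0.000857).

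*Camp* (ENSMUSG00000038357.11, reverse strand of chromosome 9 from 109676442 to 109678685) encodes the only mouse cathelicidin, and its counts were low and scattered. The no-UVB males had 11, 4, 22 and 52 reads and the UVB-irradiated males 33, 13, 7 and 14. Female controls had 0, 8, 10 and 8 reads and irradiated females 4, 20, 1 and 3. Irradiated and control mice overlapped in both sexes. The log2 fold change in males was -0.52 (SE 0.703, edgeR adjusted *p* = 0.566), and it was 0.46 without no-UVB male replicate 4 and 1.15 without replicates 3 and 4. The control males alone did not carry *Camp* past the low-count filter. In females *Camp* had too few reads for the test across genes, and an exact permutation test of its CPM gave *p* = 0.914.

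*Pglyrp1* (ENSMUSG00000030413.8, forward strand of chromosome 7 from 18605256 to 18624384) encodes a secreted receptor of bacterial cell walls. It was at 2.98, 2.76, 2.77 and 2.52 CPM in no-UVB males and at 3.15, 2.87, 2.22 and 2.35 CPM in UVB-irradiated males. In females *Pglyrp1* was at 5.07, 4.16, 2.85 and 3.08 CPM without UVB and at 4.37, 5.08, 3.99 and 3.35 CPM after it. The groups overlapped in both sexes, with log2 fold changes of -0.03 (SE 0.161, edgeR adjusted *p* = 0.881) for males and 0.16 (0.207, 0.640) for females. Its family member *Pglyrp3* rose in males, from 5.36 ± 0.872 to 15.3 ± 1.79 CPM (mean ± SD), a log2 fold change of 1.53 (edgeR adjusted *p* = 5.47e-06).

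**Figure D1:**
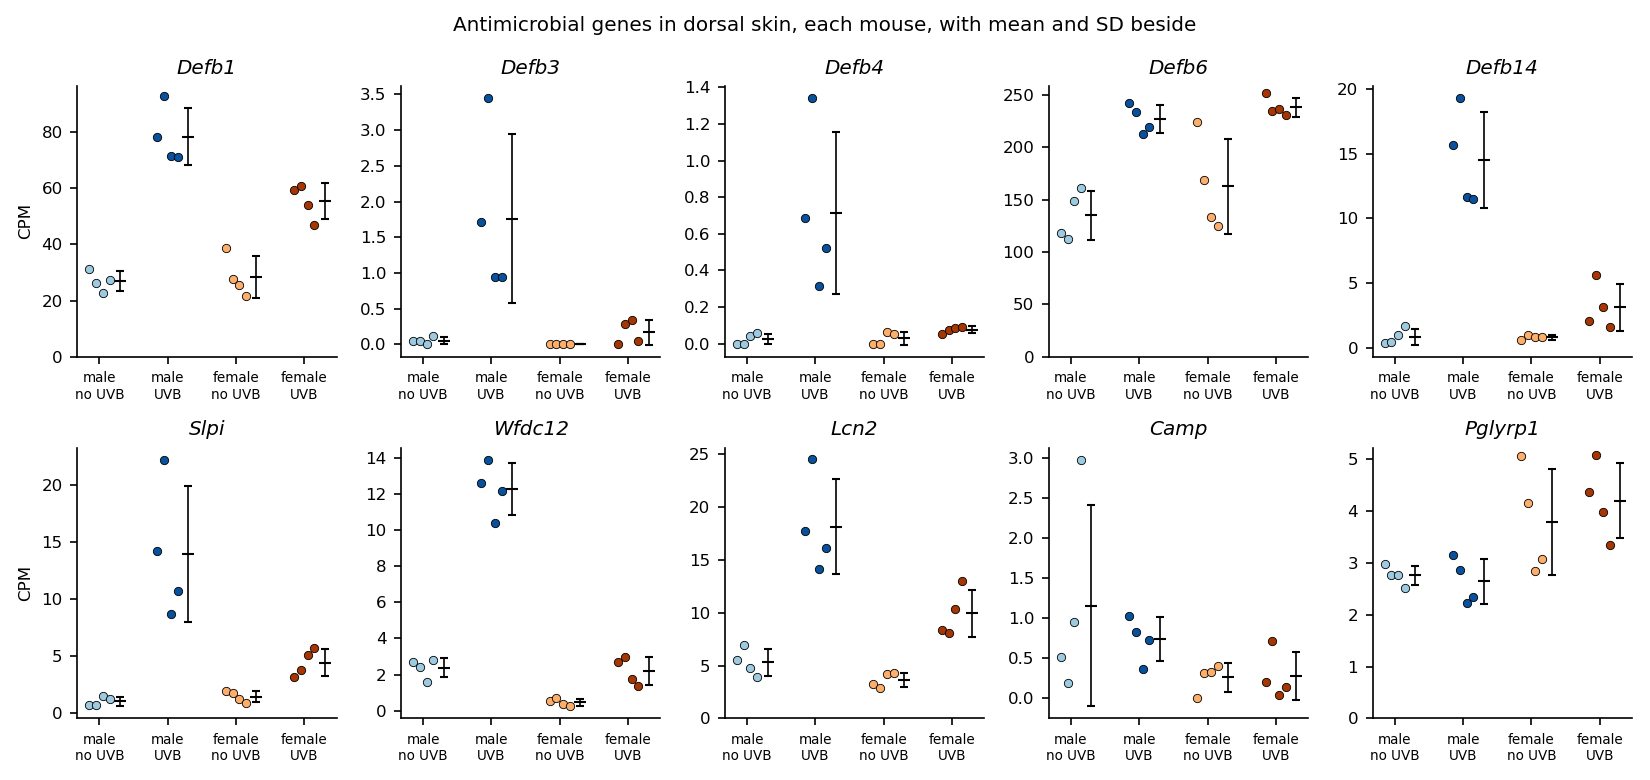
CPM (y axis, linear, a scale of its own in each panel) of the 10 antimicrobial genes in each mouse (points) of the 4 groups, with the group mean and SD beside the points. Irradiated males stand above the other groups for *Defb3*, *Defb4*, *Defb14*, *Slpi* and *Wfdc12*, where *Slpi* reaches 22.2 CPM, while the groups overlap for *Camp*.

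In the order of levels per length (CPM per kb of exon), *Defb6*, *Defb1* and *Defb14* led in this order in every group. In no-UVB males they were at 418 ± 72.9, 28.1 ± 3.66 and 4.17 ± 2.95 CPM per kb (mean ± SD), and the mice of *Defb14* overlapped those of *Wfdc12*. In UVB-irradiated males they were at 703 ± 42.1, 81.8 ± 10.6 and 71.1 ± 18.2 CPM per kb, and the mice of *Defb1* and *Defb14* then overlapped. In UVB-irradiated females *Defb14* was at 15.2 ± 8.78 CPM per kb, below *Defb1* at 57.8 ± 6.62 in every mouse. *Defb3* and *Defb4* were last in no-UVB skin of both sexes, and in UVB-irradiated males they passed *Pglyrp1* and *Camp*, although *Defb4* overlapped both of them. Between *Wfdc12*, *Slpi* and *Lcn2*, neighbours overlapped in both irradiated groups. Without division by length, 7 of the 10 genes changed place in UVB-irradiated males, and *Lcn2*, whose transcript is long, rose to place 3. *Defb14* was then at place 8 in no-UVB males and at place 6 in no-UVB females.

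**Figure D2:**
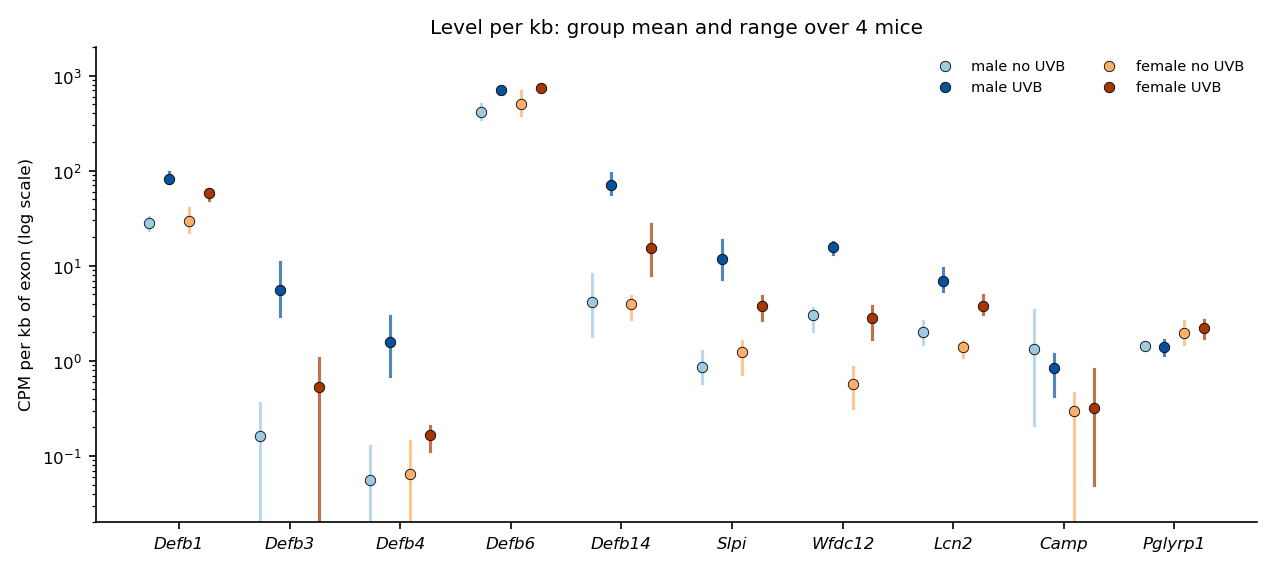
CPM per kb of exon (y axis, log scale) of each antimicrobial gene in the 4 groups, with points at group means and lines over the range of 4 mice. A line that runs to the bottom marks a group with a mouse at 0, and *Defb3* in no-UVB females, at 0 in every mouse, is not drawn. *Defb6* leads all groups, at 418 to 737 CPM per kb.

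To determine whether the response differed between the sexes, the difference of the log2 fold changes (male minus female) was tested over all 16 mice, where 2.75% of 17406 genes had a larger and 4.25% a smaller value in males at an edgeR adjusted *p* under 0.1. Of the antimicrobial genes tested, 2 of 9 passed, *Slpi* and *Defb14*, both with the larger rise in males. The difference for *Slpi* was 2.15 (SE 0.484, edgeR adjusted *p* = 0.0322), and it passed in each of 16 fits that left out 1 mouse, with adjusted *p* of at most 0.0815. For *Defb14* it was 2.16 (SE 0.622, edgeR adjusted *p* = 0.0719) and passed in 9 of 16 such fits. The call was lost, at 1.91 to 2.14 with edgeR's adjusted *p* from 0.116 to 0.155, without no-UVB male 1 or 2, UVB male 1 or 2, no-UVB female 2 or 3, or UVB female 1. It was also lost when genes were tested from 1 count upwards (edgeR adjusted *p* = 0.200).

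For the other genes the difference did not pass. It was 0.58 for *Defb1* (SE 0.213, edgeR adjusted *p* = 0.140), which passed with DESeq2's Wald test (adjusted *p* = 0.0633), with the replicate number as a block (edgeR adjusted *p* = 0.0645) and without no-UVB female replicate 4 (edgeR adjusted *p* = 0.0554). For *Lcn2* it was 0.32 (SE 0.294, edgeR adjusted *p* = 0.576), for *Defb6* 0.20 (0.213, 0.627) and for *Wfdc12* 0.11 (0.439, 0.916). For *Pglyrp1* it was -0.21 (SE 0.266, edgeR adjusted *p* = 0.696) and for *Camp* -0.72 (1.19, 0.769). *Defb3* and *Defb4*, near 0 in the controls, give no usable value of this difference.

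**Figure D3:**
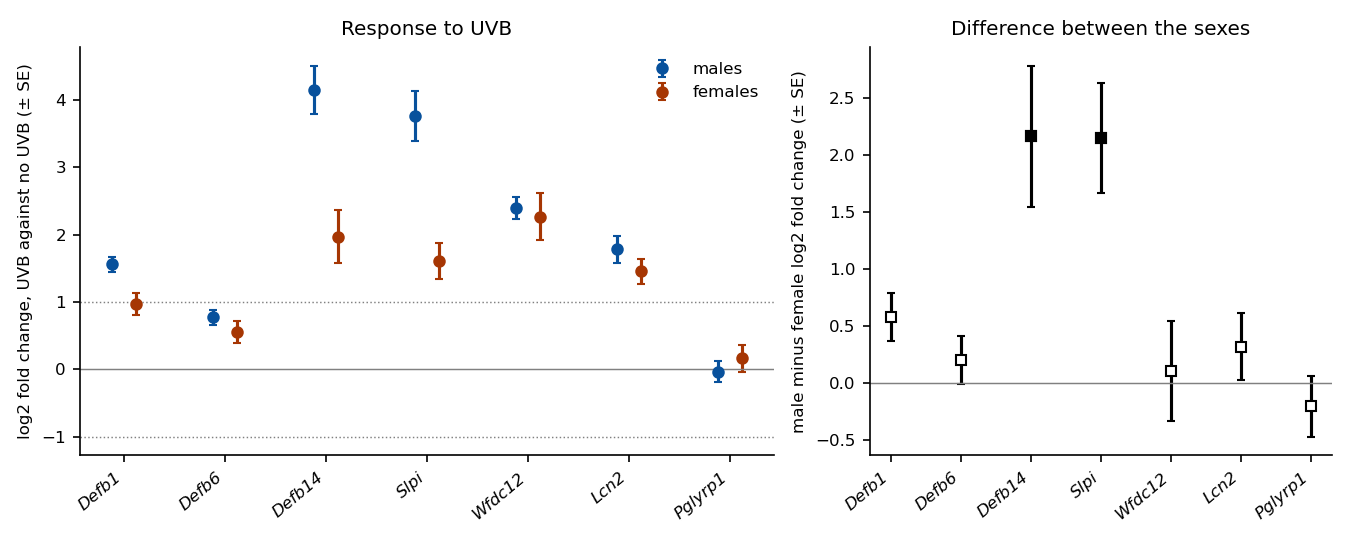
Left, log2 fold change of UVB against no UVB (y axis, ± SE) in males and females for the 7 antimicrobial genes tested in both sexes, with dotted lines at the fold required for a call. Right, the male minus female difference of these values (± SE), with filled squares for *Slpi* and *Defb14*, at 2.15 and 2.16, the only ones past the adjusted *p* threshold.

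The sexes were also compared within each treatment. Without UVB, 1 of 9 antimicrobial genes tested differed at an adjusted *p* under 0.1 in edgeR's test, as did 11.8% of all genes (7.21% higher and 4.58% lower in males). This was *Wfdc12*, higher in males by 2.37 on the log2 scale (SE 0.303, edgeR adjusted *p* = 0.000111), and it was the only 1 of the 10 genes in which the sexes did not overlap, where 7.8% of all genes were higher in every male and 5.17% lower. After UVB, 7 of 9 differed, 6 higher and 1 lower in males, where 25.2% of all genes did, 12.8% higher and 12.5% lower. In 7 of the 10 genes every irradiated male was above every irradiated female (11.5% of all genes), and in 1 below (9.76%). *Wfdc12* was again higher in males, by 2.47 (edgeR adjusted *p* = 8.21e-06), followed by *Defb14* with 2.19 (0.00116), *Slpi* with 1.65 (0.00198), *Lcn2* with 0.87 (0.00816) and *Defb1* with 0.50 (0.0300). *Defb3*, the other gene counted as higher, was tested only because of the irradiated males, with 145 reads in them and 17 in the irradiated females, and without it 5 of 8 were higher and 1 lower. *Pglyrp1* was lower in irradiated males, with a log2 difference of -0.66 (edgeR adjusted *p* = 0.0243), and *Defb6* and *Camp* did not pass (edgeR adjusted *p* = 0.787 and 0.283). Before UVB the value for *Pglyrp1* was -0.45 (edgeR adjusted *p* = 0.161), and it passed without no-UVB female replicate 3 (0.0767) and with the replicate block (0.0846). *Camp*, at 2.06 (edgeR adjusted *p* = 0.139), passed without no-UVB male replicate 2 (0.0874) and with DESeq2's Wald test (0.0765), and was at 0.40 without no-UVB males 3 and 4. *Lcn2* was at 0.55 (edgeR adjusted *p* = 0.146) and passed without these 2 mice (0.78, 0.0838).

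Markers of other cell types also differed between the sexes. Without UVB, 4 of 6 fibroblast, 3 of 6 skeletal muscle and 2 of 5 anagen hair markers tested were higher in males, and 2 of 9 T cell, 2 of 11 macrophage and 1 of 10 sebaceous gland markers were lower. After UVB, 6 of 9 T cell, 5 of 5 adipocyte, 1 of 11 macrophage, 1 of 6 skeletal muscle and 3 of 10 sebaceous gland markers were lower in males. In the same comparison 1 of 10 sebaceous gland, 3 of 6 fibroblast, 4 of 7 basal, 5 of 6 suprabasal and 4 of 5 activated keratinocyte markers and 4 of 7 neutrophil markers were higher. Their part in the differences of the antimicrobial genes was not tested.

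Other antimicrobial genes of skin moved in both directions. Of 43 such genes, 27 were tested in males, of which 9 were upregulated and 5 downregulated with a median log2 fold change of 0.22, against -0.02 over all genes tested. In females 5 of 28 were upregulated and 1 was downregulated, with a median of 0.18. *Lpo*, which encodes lactoperoxidase, had log2 fold changes of 3.02 in males and 1.40 in females (edgeR adjusted *p* = 5.26e-05 and 0.0765), from 0.688 ± 0.263 to 5.53 ± 1.98 CPM in males. The female call of *Lpo* held in 3 of 8 fits that left out 1 mouse, and its value was 0.70 without UVB female replicate 2. *Gsdma*, a pore-forming gasdermin of keratinocytes, rose in males from 67.2 ± 14.7 to 244 ± 23.8 CPM, and in females from 79.0 ± 27.4 to 165 ± 16.3 CPM, where its call held in 7 of 8 such fits. *Wfdc5* rose by 1.26 in males (edgeR adjusted *p* = 2.18e-05), and its value in females was 0.97. *Hamp2*, one of the hepcidin genes, fell in males by 3.36 in log2 units (edgeR adjusted *p* = 0.000712), from 60.2 ± 29.2 to 5.81 ± 2.11 CPM. Its log2 fold change in females was -0.97.

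Among the signals known to induce antimicrobial peptides that could be tested, the IL-36 cytokines rose most. *Il17a*, *Il17f*, *Il17c*, *Il22*, *Il6* and *Csf3* had too few reads for the test in either sex. Of 40 genes listed, 32 were tested in males, with 4 upregulated and 2 downregulated, and 33 in females, with 4 upregulated and 0 downregulated. The 4 genes were *Il36a*, *Il36b*, *Il36g* and *Il1b* in both sexes, although the female value of *Il1b* (1.03) lay at the threshold and was called in 5 of 8 fits that left out 1 mouse, with 0.85 as the lowest. The 2 downregulated in males were *Cebpd* (-1.50, edgeR adjusted *p* = 0.0162) and *Nfkbia* (-1.11, 0.0235). *Il36a* was at 1.41 ± 0.986 CPM in no-UVB males and 75.3 ± 22.0 CPM in irradiated males, and at 2.04 ± 0.443 and 28.9 ± 14.5 CPM in the corresponding females. *Il36g*, the most abundant of the cytokine genes named here, rose in males from 17.7 ± 5.43 to 141 ± 21.9 CPM, and in females from 18.6 ± 2.43 to 94.8 ± 14.2 CPM. The male minus female difference did not pass for any of the 4 cytokines. It passed for *Stat3*, a transcription factor downstream of IL-22 and IL-6, at 0.42 (SE 0.0881, edgeR adjusted *p* = 0.0228), where males had a log2 fold change of 0.48 and females of 0.04.

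The kallikreins *Klk5*, *Klk7* and *Klk8* rose in both sexes. Kallikreins are proteases that process cathelicidin and shed the outer epidermis. Of 22 genes for processing enzymes and receptors, 16 were tested in males, with 4 upregulated and 1 downregulated, and 15 in females, with 3 upregulated and 1 downregulated. *Klk7* was the most abundant of the kallikreins named here and rose in males from 285 ± 54.1 to 961 ± 114 CPM, and in females from 309 ± 65.3 to 686 ± 83.2 CPM. *Klk8* rose by 2.55 in males and 1.67 in females on the log2 scale, and *Klk5* by 1.39 and 1.26 (edgeR adjusted *p* for *Klk5* 7.38e-05 and 0.000443). The fourth gene counted in males, *Klk14*, had 10, 8, 3 and 5 reads in the control males and reached the low-count filter only with the irradiated ones, which spread from 0.886 to 7.91 CPM, and no *p* is given for it. In females *Klk14* was not among the upregulated genes, and its controls had 29, 9, 9 and 0 reads. *Mmp9*, a gelatinase of neutrophils and keratinocytes, fell by 1.57 on the log2 scale in males and by 1.06 in females, where its call held in 6 of 8 fits that left out 1 mouse.

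Markers of cell types were read beside these results, since several of the antimicrobial genes are made by more than 1 cell type. Of 16 neutrophil markers, 7 were tested in males with 4 upregulated, and 6 in females with 2 upregulated. Their summed level was 26.2 to 34.4 CPM in no-UVB males and 71.1 to 179 CPM in irradiated males, and 24.7 to 42.1 and 35.6 to 48.7 CPM in the corresponding females. The genes that rose were *S100a8*, *S100a9*, *Mmp8* and *Cxcr2* in males and *S100a9* and *Cxcr2* in females. *S100a8* and *S100a9* are also made by keratinocytes and are part of the summed level. The other markers tested in males, *Csf3r*, *Retnlg* and *Itgam*, were not called (log2 fold changes of 0.71, -0.52 and -0.12). They were not called in females either (0.09, -0.09 and -0.40). *Mmp8* in males and *Cxcr2* in both sexes reached the low-count filter only with the irradiated mice. The defining marker *Ly6g* had 1 read in all 16 mice, and the granule gene *Ngp* had 26 reads in UVB female replicate 2 and at most 1 in any other mouse. The same female held 20 of the 28 *Camp* reads of its group, while no-UVB male replicate 4, with 52 *Camp* reads, had 0 of *Ngp*. The part of neutrophils in these results was not tested.

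Of 5 activated keratinocyte markers, 4 were upregulated in each sex. *Krt17* was below the fold required in males (0.57) and at 0.05 in females (edgeR adjusted *p* = 0.907), and the female call of *Krt6a* (1.14, edgeR adjusted *p* = 0.0688) held in 2 of 8 fits that left out 1 mouse. Their summed level was 656 to 836 CPM in no-UVB males and 3752 to 6821 CPM in irradiated males, and 532 to 1020 and 923 to 1694 CPM in the corresponding females, whose ranges overlapped. *Krt6b*, a keratin of wounded epidermis, rose by 8.72 in males and 4.85 in females on the log2 scale, and *Krt16* by 6.11 and 2.97. For both the male minus female difference passed, at 3.86 (edgeR adjusted *p* = 0.00778) for *Krt6b* and 3.12 (0.00976) for *Krt16*. Of 6 suprabasal markers tested, 5 were upregulated in males and 4 in females, and fibroblast markers had 2 of 6 downregulated in males, *Col1a1* and *Col1a2*. The summed fibroblast level was 79065 to 86268 CPM in no-UVB males and 28385 to 39292 CPM in irradiated males. Macrophage markers had 0 of 11 called in either sex. How far these shifts bear on the antimicrobial genes was not tested.

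UVB male replicate 2, which had the fewest reads and the highest neutrophil and activated keratinocyte sums, was the highest of its group for 7 of the 10 antimicrobial genes. Without it, *Defb1*, *Lcn2*, *Slpi* and *Wfdc12* were still called upregulated in males. *Defb3* and *Defb14*, the others of 6 called among 9 tested, entered that test only because of the irradiated males. The difference between the sexes was still called for *Slpi* but not for *Defb14*.

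**Figure D4:**
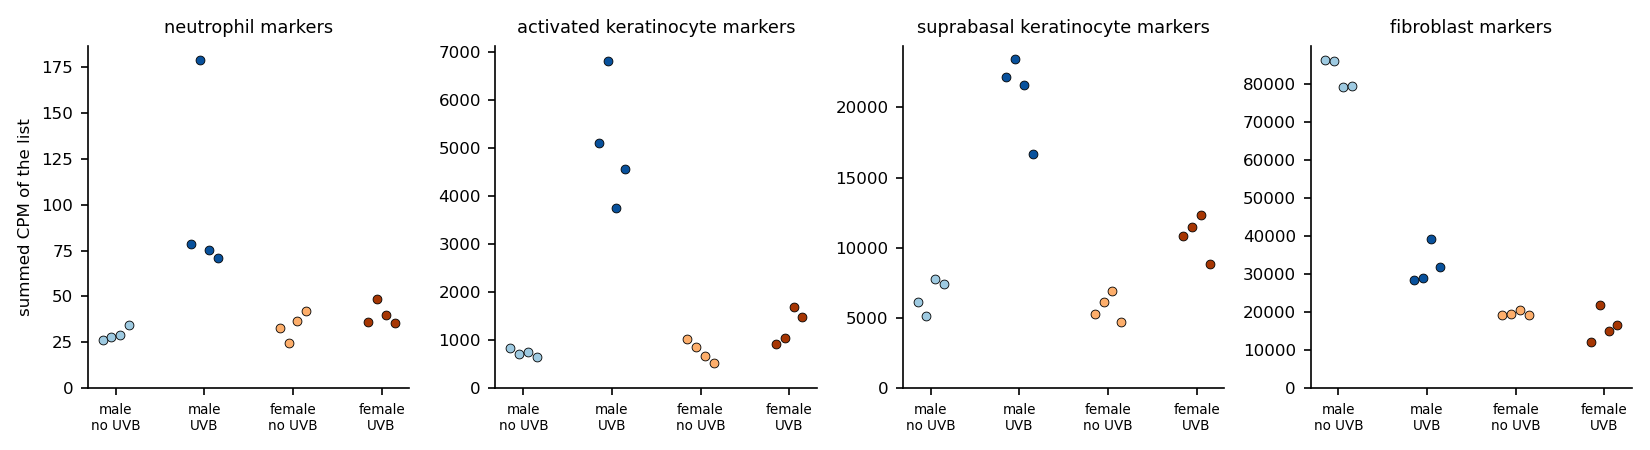
Summed CPM (y axis, linear) of 4 lists of cell type markers in each mouse (points) of the 4 groups. Irradiated males stand above all other mice for neutrophil (71.1 to 179 CPM) and activated keratinocyte markers, and no-UVB males stand above all other mice for fibroblast markers. The neutrophil list holds *S100a8* and *S100a9*, which keratinocytes also make.

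The genes whose log2 CPM followed the antimicrobial genes most closely over the 16 mice were named from 15118 genes with at least 1 CPM on average. For *Slpi* they were *Klk6*, *Sprr2f* and *Lypd3* (Pearson's r 0.984, 0.981 and 0.980), and for *Defb14* they were *Lce3b*, *Lce3f* and *Sdr9c7* (0.978, 0.973 and 0.969). *Sprr2f*, *Lce3b* and *Lce3f* encode cornified envelope proteins. For *Defb1* they were *Calml3*, *Txndc9* and *Cd24a*, for *Lcn2* *Prr13*, *Ran* and *Mrpl17*, for *Wfdc12* *Bod1*, *Tent5b* and *Atp6v0d1*, and for *Defb3* *Eno1*, *Saa3* and *Ankrd13a*, with r from 0.953 to 0.981. All points share the 4 groups, so that any gene with the same order of groups scores highly. Within the antimicrobial genes the closest pair was *Slpi* and *Defb14* (r = 0.934), which lie on different chromosomes, followed by *Defb3* and *Defb4* of the same defensin cluster and by *Defb1* and *Slpi*, on different chromosomes (both 0.925).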

How the data were processed

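Skin from each of 16 mice was sequenced by the authors as strand-specific poly(A) libraries, and reads were aligned to GRCm39 with STAR (version not given in the sources used here). The deposited tables hold, for each mouse, unnormalized counts for every Ensembl gene, and the column for reads on the gene's own strand in this kit was used (3.63 to 4.23% of gene reads lay on the other strand). All mice were kept, and 2 control males with anagen hair markers were left out in an alternative. GENCODE M39 names and positions matched 54749 identifiers, and 610 kept their identifier. Libraries of a group differed beyond sampling noise (chi-square per degree of freedom 9.54 to 98.3 over 24 pairs).

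Counts were filtered by filterByExpr, scaled by TMM and tested by the robust quasi-likelihood tests of edgeR, with no covariate, over all genes with Benjamini-Hochberg adjustment (R 4.3.3, edgeR 4.0.16, limma 3.58.1, DESeq2 1.42.0, apeglm 1.24.0). Responses were fitted in the 8 mice of a sex, called at an adjusted *p* under 0.1 and a log2 fold change past 1. Differences between the sexes and of their responses were fitted over 16 mice and called at the adjusted *p*. The procedure was tested on simulated data. For groups with at most 3 reads in every mouse, reads, ratios of summed reads with exact 95% intervals (counting error only) and exact permutation tests over mice (chosen after seeing the data) are given. Promoters were aligned with Biopython 1.88, and likeness used log2 CPM (prior count 2).

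The genes, the lists of related and marker genes and the tests were chosen with earlier results of these data known. All 10 genes are named. From each list, up to 6 called genes in order of male adjusted *p* could be named, plus neutrophil markers and, chosen after their values were seen, *Defb8*, *Wfdc21*, *Krt17*, *Krt71*, *Cebpd*, *Nfkbia*, *Col1a1* and *Col1a2*. Inducing cytokines with too few reads for the test were named as well. The listed symbol *Lor* was not in the annotation. Alternatives were other scalings, filters, strand, thresholds, DESeq2, apeglm, thinning, a single fit, the replicate number as a block, and each mouse left out.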

Additional observations from a re-analysis of the deposited data

Results flagged for a closer look

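The responses of *Slpi* and *Defb14* differed between the sexes in the test of the difference itself, by 2.15 and 2.16 on the log2 scale, with the larger rise in males. *Slpi* passed in 16 of 16 fits that left out 1 mouse and *Defb14* in 9 of 16, and *Defb14* did not pass when genes were tested from 1 count upwards (edgeR adjusted *p* = 0.200). Among the other listed genes named by the rule, the male minus female difference also passed for *Krt6b* (3.86), *Krt16* (3.12), *Krt6a* (2.48), *S100a8* (3.47), *Pglyrp3* (1.20), *Stat3* (0.42) and *Furin* (0.38), each in 16 of 16 fits that left out 1 mouse. *Hamp2* had the larger fall in males (-2.40, 16 of 16 fits). The difference was less stable for *S100a9* (2.24, 13 of 16 fits), *Mmp8* (1.69, 5 of 16), *Klk14* (3.82, 4 of 16) and *Osmr* (0.31, 4 of 16), of which the last 3 did not pass without no-UVB males 3 and 4 (edgeR adjusted *p* = 0.172, 0.159 and 0.229). *Klk14* and *Mmp8* were tested only because of the irradiated males. No mouse stood apart from its group by Dixon's test of CPM in the 35 sets of 4 mice in which an antimicrobial gene was above the floor. With 4 mice this test looks for 1 mouse apart from the rest. It cannot flag 2 that deviate together, as no-UVB males 3 and 4 would.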

How the results depend on the processing

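Of 940 recalculations of 41 values for the antimicrobial genes, 899 kept the direction and the side of the threshold, 8 lost a call (all for the difference of *Defb14* between the sexes), 14 gained one and 19 changed sign, none of these from a called value. The values include the male responses of *Defb3* and *Defb14*, the female response of *Wfdc12*, and *Defb3* between the sexes after UVB. These genes entered those tests only by being high in irradiated mice, so their part of the tally is no support. The number called for the difference between responses fell from 2 to 1 when genes were tested from 1 count upwards and to 1 with at least 10 counts in every mouse, where 5 genes were tested, and lay between 1 and 3 with each mouse left out. For the sexes without UVB, that filter gave 0 of 5 in edgeR's test, with 2 at an unadjusted *p* under 0.05, as *Wfdc12* was not tested; no other tool was run with it. DESeq2's Wald test gave 2 and the fits without a mouse gave 1 to 2. For the sexes after UVB the filter gave 4 of 5. Leaving out length changed the place of 7 genes in the level order of the irradiated males, and of 4 to 7 over the groups. Without no-UVB males 3 and 4 (chosen after seeing the data), 2 were called for the sexes without UVB and 9 of 10 in males. The 9 hold genes tested only because of the irradiated males, among them *Camp*, *Defb3* and *Defb14*. As the share of all genes called in this fit is not at hand either, these counts are not read as a result. Male calls otherwise stayed between 4 and 7 and female calls between 3 and 6, where 6 is the number at the adjusted *p* alone. The counts here and in the next paragraph also include genes tested only because of the irradiated mice.

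The replicate number as a block gave 6 calls in males, 4 in females, 3 for the difference of responses, 2 for the sexes without UVB and 7 after it, where the gained calls were *Defb1* for the difference of responses and *Pglyrp1* for the sexes without UVB. The numbers only name the mice: deviations of same-numbered mice correlated at -0.15 to 0.05 in males and -0.33 to 0.46 in females, and 0 of 4 irradiated males and 2 of 4 irradiated females were closest to their own number.

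*Defb14* between the sexes without UVB was 0.03, -0.094 with thinned counts and -0.46 to 0.28 with each mouse left out. In the latter fits, *Defb1* in that comparison ranged from -0.21 to 0.11, the male response of *Pglyrp1* from -0.14 to 0.041 and that of *Camp* from -0.88 to 0.46, and the difference of responses from -1.09 to 0.47 for *Camp* and from -0.13 to 0.31 for *Wfdc12*. Without no-UVB males 3 and 4, values of the other sign were 1.15 (male response) and 0.94 (difference of responses) for *Camp*, -0.011 for the difference of *Wfdc12*, and -1.03 for *Defb14* and 0.018 for *Defb1* between the sexes without UVB. The cause was not tested. *Defb3* and *Defb4* had at most 2 reads in any control mouse, which bounds what can be said of their folds.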
